A study of Mus musculus with 15 samples.

Results

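Expression of 10 neutrophil genes was examined in transplanted mouse hearts and livers, namely the granule genes Ngp, Camp, Ltf, Lcn2, Mpo and Elane, the calprotectin genes S100a8 and S100a9, and the neutrophil chemokines Cxcl1 and Cxcl2. They were read from 11 of the 41174 probes of the array (10 of 32301 genes), 1 probe for each gene except Ltf, which has 2. The set was selected on hepatic values, because Ngp and Camp had been seen far higher in hepatic allografts at post-operative day 8 (POD8) than at day 5 (POD5). For that reason the POD8 against POD5 values of the 10 genes, and all hepatic values of Ngp and Camp, are described here without a test. There were 15 single-colour arrays in 5 groups of 3. Cardiac allografts were hearts of B10 (C57BL/10) donors placed in the abdomen of CBA recipients and taken at POD5, beside 3 cardiac controls. Hepatic allografts were livers of B10.BR donors placed orthotopically in B10.D2 recipients and taken at POD5 or at POD8, beside 3 hepatic controls that served both days. The mice were male, and total RNA was taken from the whole graft. The controls are normal tissue by the labels and the methods but isografts in the results of the study, and the sources used here do not settle which. Their strain and any operation on them are not given in the sources used here. The labels do not say that the 3 arrays of a group were separate animals. The methods list as many control tissues for each organ as there are arrays and, beside the PCR assay, as many mice per time point, but tie no array to a mouse. P-values therefore measure the spread between arrays, part of which may be technical.

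Neutrophils carry most of their weapons in granules that are filled while the cell matures in the bone marrow. Primary granules are made first, at the promyelocyte stage, and hold myeloperoxidase (Mpo) and neutrophil elastase (Elane). Specific granules follow and hold lactoferrin (Ltf), cathelicidin (Camp), lipocalin-2 (Lcn2) and neutrophilic granule protein (Ngp), and transcription of both sets is largely shut down before the cell leaves the marrow. S100a8 and S100a9 together form calprotectin, an abundant cytosolic protein whose mRNA is still plentiful in circulating neutrophils. Cxcl1 and Cxcl2 are secreted chemokines that act through the receptor CXCR2, and they are made by endothelial cells, macrophages and parenchymal cells rather than by neutrophils alone. Lcn2 is also an acute phase gene of hepatocytes, so that it is not a marker of neutrophils in liver.

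The promoters of the 2 members with the largest POD8 against POD5 differences and of both chemokines are shown because the members of each pair lie on the same chromosome. Each sequence runs 5′ to 3′ on the strand of the gene, from 250 bases before to 50 bases after its start in RefSeq (GRCm38.p6). These are chr9:110419558-110419857 on the plus strand for Ngp, chr9:109849407-109849706 on the minus strand for Camp, chr5:90890995-90891294 on the plus strand for Cxcl1 and chr5:90903649-90903948 on the plus strand for Cxcl2. Capitals mark matches, on either strand, to TTGCNNAA, the letters of a C/EBP site, or to GGGANNNNCC, those of an NF-kB site.
Ngp: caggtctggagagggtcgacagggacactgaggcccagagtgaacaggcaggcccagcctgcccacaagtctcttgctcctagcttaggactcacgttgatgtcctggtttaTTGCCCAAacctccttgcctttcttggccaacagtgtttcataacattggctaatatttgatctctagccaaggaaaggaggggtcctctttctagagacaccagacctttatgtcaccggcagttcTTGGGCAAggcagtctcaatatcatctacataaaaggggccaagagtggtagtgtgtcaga
Camp: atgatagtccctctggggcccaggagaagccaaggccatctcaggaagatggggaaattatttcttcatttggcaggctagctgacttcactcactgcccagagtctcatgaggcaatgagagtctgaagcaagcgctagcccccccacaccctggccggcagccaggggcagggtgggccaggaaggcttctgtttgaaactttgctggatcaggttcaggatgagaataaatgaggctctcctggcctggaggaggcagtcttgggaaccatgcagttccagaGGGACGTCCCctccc
Cxcl1: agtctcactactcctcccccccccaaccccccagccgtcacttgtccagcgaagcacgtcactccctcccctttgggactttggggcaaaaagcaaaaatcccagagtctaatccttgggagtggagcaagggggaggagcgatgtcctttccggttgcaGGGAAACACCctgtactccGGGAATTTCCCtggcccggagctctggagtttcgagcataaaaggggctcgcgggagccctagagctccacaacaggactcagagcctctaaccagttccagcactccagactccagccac
Cxcl2: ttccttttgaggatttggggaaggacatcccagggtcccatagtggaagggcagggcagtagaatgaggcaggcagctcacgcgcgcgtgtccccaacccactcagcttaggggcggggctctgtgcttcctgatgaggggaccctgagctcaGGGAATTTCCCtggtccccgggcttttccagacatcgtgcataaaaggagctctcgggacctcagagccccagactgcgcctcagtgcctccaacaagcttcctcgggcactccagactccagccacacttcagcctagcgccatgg

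The Ngp window held 2 C/EBP matches, starting at positions -138 and -11 from the start site, and no NF-kB match. The Camp window held none of the former and 1 NF-kB match, at position 36 within the transcribed part. The Cxcl1 window held 2 NF-kB matches, at -90 and -71, and the Cxcl2 window 1, at -97. Single C/EBP matches were found in the windows of Ltf, Lcn2 and S100a9. Of 32851 mouse promoter windows of this length, 10.8% held the C/EBP letters and 20.7% the NF-kB letters. The PU.1 core GAGGAA, found in 28.3% of windows, was present for Ltf, Lcn2, S100a8, Mpo, Elane and Cxcl2, and TATAAA (13.6%) for S100a8 and S100a9. In S100a9 TATAAA began at position 1 and in Cxcl2 the PU.1 core at 3, both within the transcribed part. In S100a8 TATAAA began at -30. A match says only that these letters stand in the window. Camp and Ngp are separated by 8 other protein-coding genes on chromosome 9 and Ngp and Ltf by 20, whereas no protein-coding gene separates S100a8 from S100a9 or Cxcl1 from Cxcl2.

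The arrays differed in brightness before normalization. Hepatic controls were dimmest, with a 75th percentile of 87.8 to 216 in units of the processed signal, against 319 to 452 for hepatic POD5, 365 to 426 for POD8, 363 to 652 for cardiac allografts and 935 to 1150 for cardiac controls. The share of probes that the scanner software marked as well above background was 52.5% to 57.0% for hepatic controls and 56.2% to 70.5% for the other arrays. The 8 hepatocyte markers had summed normalized signals of 591000 to 758000 on hepatic arrays and 367 to 4950 on cardiac arrays, and the 8 cardiomyocyte markers 457 to 1700 and 486000 to 962000, so that the organ labels fit the arrays. All 3 cardiac allografts were on 1 slide and the 3 cardiac controls on another, and in the heart slide and group cannot be told apart. The livers at POD5 shared no slide with the hepatic controls or with the livers at POD8, so that no value within a slide can be had for either of those contrasts. Levels are given below as log2 of the quantile-normalized signal, and they can be set against each other between groups but not between genes.

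Among the specific granule genes, Ngp was above background at POD8 in the liver and in the cardiac controls. The POD8 allografts read 7.72, 5.9 and 5.4, the hepatic controls 3.87, 3.66 and 3.64, and the POD5 allografts 1.06, 1.22 and 1.06. No hepatic control and no POD5 allograft was well above background, so that no order is given between these groups. Cardiac controls read 3.33, 2.98 and 3.25, all well above background, and cardiac allografts 2.73, 3.81 and 1.06, none of them so. All 3 POD8 livers therefore stood above each of the other 12 arrays. In bulk tissue, fewer cells of a type and less RNA per cell cannot be told apart.

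Camp, the precursor of the antimicrobial cathelicidin peptide, read 8.77, 7.18 and 6.15 in the livers at POD8, and 1.18, 1.18 and 2.14 at POD5. Hepatic controls read 5.19, 5.52 and 4.37, the last not well above background. The POD5 livers were the only group with no array above background, and they lay below all 12 other arrays. Cardiac allografts read 4.91, 6.82 and 5.10 and cardiac controls 5.36, 4.63 and 5.13, with overlapping ranges.

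Ltf, which binds iron, read 8.89, 9.39 and 7.44 in the livers at POD8 and 6.80, 7.11 and 7.04 at POD5. Hepatic controls spread from 5.25 (not well above background) through 6.40 to 7.74 and overlapped both allograft groups. On this probe hearts read below every liver, at 4.73, 4.87 and 4.98 in allografts and 5.01, 4.73 and 4.59 in controls. The other Ltf probe gave the same order of the hepatic groups, with means of 7.89 ± 1.08 (SD, n = 3) at POD8, 6.11 ± 0.12 at POD5 and 5.5 ± 1.89 in controls, and in the heart 3.79 ± 0.17 in allografts and 4.17 ± 0.26 in controls. On that probe 1 hepatic control (3.56, not well above background) read below all hearts.

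Lcn2 did not share this pattern. It read 14.27, 13.08 and 13.03 in the livers at POD5, 13.18, 12.46 and 13.98 at POD8 and 11.07, 12.48 and 13.45 in hepatic controls, ranges that all overlapped. Hearts read 7.53, 9.46 and 7.88 in allografts and 8.14, 8.48 and 9.07 in controls. Every liver stood above every heart, and within an organ no group stood apart.

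Of the primary granule genes, Mpo resembled Ngp and Camp in the liver and was above background on all 15 arrays. It read 9.71, 8.34 and 7.62 at POD8, 7.40, 6.88 and 7.62 in hepatic controls, and 5.48, 5.43 and 5.62 at POD5. The POD5 livers were close together and below every other liver. Hearts read 5.88, 7.54 and 5.69 in allografts and 5.74, 5.43 and 6.82 in controls, which overlapped. Elane was well above background on only 2 arrays, 1 POD8 liver (4.62) and 1 POD5 liver (4.17). Its other 13 readings ran from 1.20 to 3.74 and have no order.

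The calprotectin genes had their highest levels in cardiac controls. S100a8 read 11.90, 11.91 and 12.56 there and 8.91, 11.64 and 9.46 in cardiac allografts. In the liver it read 10.22, 8.71 and 9.49 at POD8, 8.79, 8.0 and 8.63 at POD5, and 7.29, 9.56 and 8.96 in controls. The cardiac controls stood above all 12 other arrays, and the 3 hepatic groups overlapped. S100a9, its partner, put the 5 groups in the same order by mean. It read 15.08, 14.85 and 15.54 in cardiac controls and 12.87, 14.89 and 13.27 in cardiac allografts. Hepatic values were 13.88, 12.36 and 13.25 at POD8, 12.49, 11.91 and 12.57 at POD5, and 11.57, 13.12 and 12.59 in controls.

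The chemokines Cxcl1 and Cxcl2 ordered the groups differently. Cxcl1 read 10.79, 10.57 and 12.58 in hepatic controls, 9.33, 8.97 and 8.60 in livers at POD5, and 11.14, 9.99 and 10.61 at POD8. The POD5 livers were below every other liver. In the heart it read 8.89, 10.33 and 9.34 in allografts and 8.35, 8.11 and 9.61 in controls. Cxcl2 was not well above background on any hepatic control, which read 2.35, 1.12 and 1.17. It read 3.85, 2.62 and 4.36 in livers at POD5 and 3.59, 3.26 and 3.50 at POD8, with 2 of 3 arrays well above background at either day. Hearts were above background throughout, at 4.11, 6.03 and 4.68 in allografts and 5.47, 4.68 and 5.11 in controls. The hepatic allograft groups overlapped each other, as did cardiac allografts and controls.

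**Figure D1:**
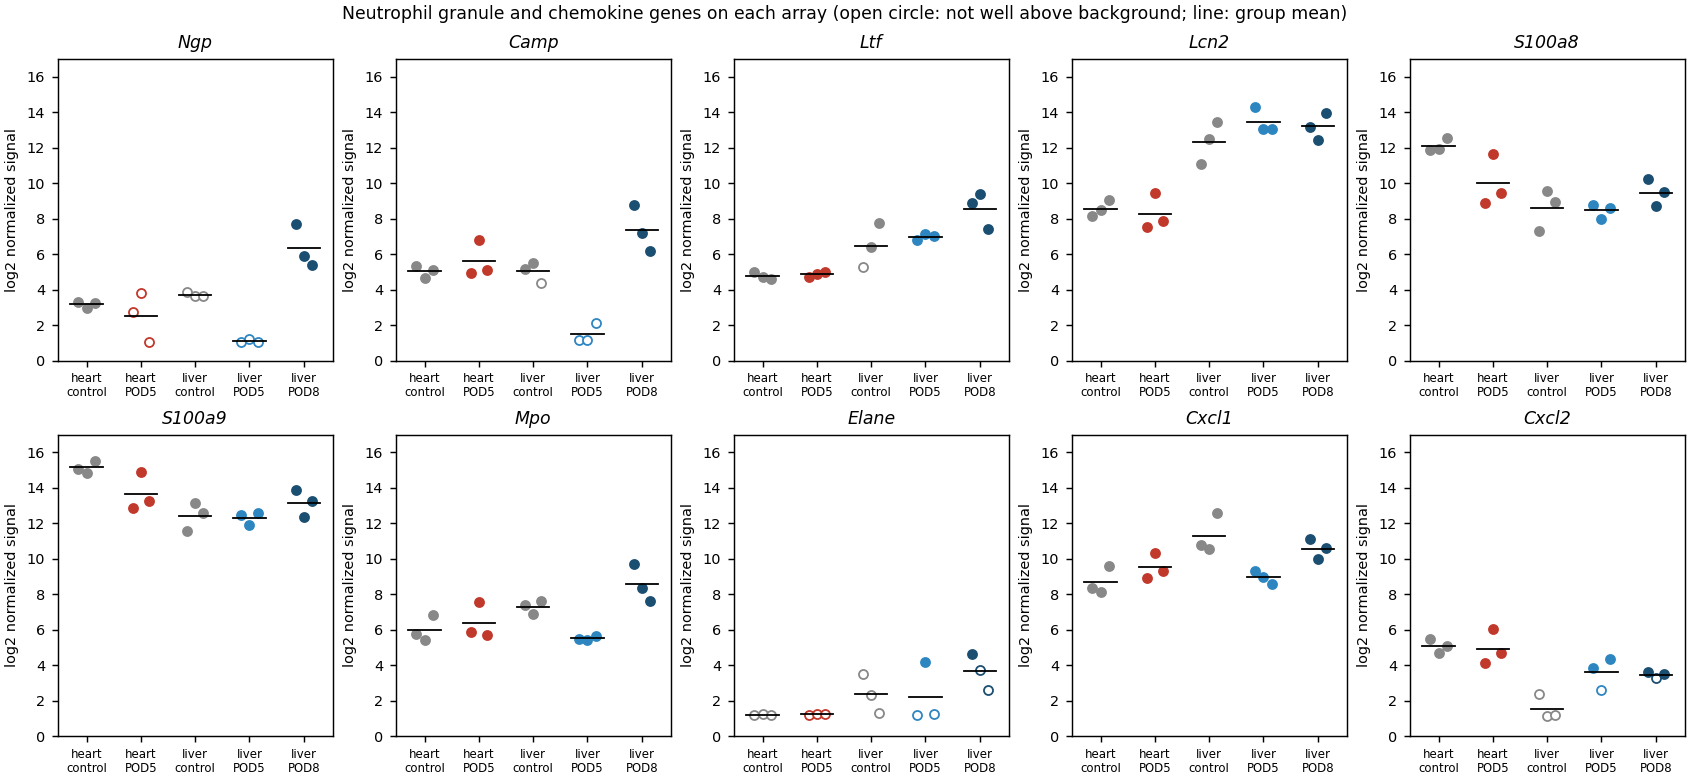
Each panel plots 1 gene, with the 5 groups on the horizontal axis and the log2 normalized signal on the vertical axis. Points are arrays, open where the probe was not well above background, and the line is the mean of 3 arrays; the means of Ngp, Camp and Mpo are highest in the livers at POD8, and those of Camp lowest in the livers at POD5.

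The first question was how the hepatic allografts differed between the days of harvest, a contrast that was part of the choice of genes. Differences of group means (POD8 minus POD5, log2) were 5.87 for Camp, 5.22 for Ngp, 3.05 for Mpo, 1.61 for Cxcl1, 1.59 for Ltf, 1.43 for Elane, 1.0 for S100a8 and 0.84 for S100a9. Cxcl2 was at -0.16 and Lcn2 at -0.25, with ranges that crossed 0 when 1 array was left out (-0.66 to 0.22 and -0.64 to 0.15). Because Ngp and Camp were not above background on any POD5 array, their fold is a lower bound, in which the lowest signal well above background on an array replaces a dimmer reading. Camp was at least 15.7-fold and Ngp at least 7.72-fold higher at POD8, and Mpo, measured on all arrays, 8.28-fold. The 3 POD8 livers lay above the 3 POD5 livers for 5 of the 10 genes (Ngp, Camp, Ltf, Mpo and Cxcl1) and below them for 0, where 8.83% and 11.2% of all genes did so. The median over the 10 genes, Ngp and Camp among them, was 1.51, against -0.01 over all genes. Nothing is read from that count or from this median, since the rule used this contrast. The first POD8 array had the highest reading of its group for 8 of the 10 genes, and without it the differences were 5.16 for Camp, 4.54 for Ngp and 2.47 for Mpo. With a normexp background correction they were 1.93, 1.39 and 1.98.

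Neutrophil genes that were not members were compared between the days in the same way, as a description only. Of all genes, 8.83% had POD8 livers above all POD5 livers and 11.2% below. In the list of primary granule and early precursor genes, Prtn3 (proteinase 3), Ctsg (cathepsin G) and Ms4a3, a membrane protein of granulocyte progenitors, had POD8 livers above all POD5 livers, by 0.88, 1.54 and 3.61. Ms4a3 was not above background on any POD5 array, and its fold was at least 4.29. Gfi1, a transcriptional repressor used by neutrophil precursors and also by activated T cells, differed by -0.40 with overlapping arrays. In the list of specific and gelatinase granule genes 2 of 10 stood apart, Fcnb (1.76) and Itgb2l (1.75). Each was well above background on 1 POD8 array and no POD5 array. Mmp8 (0.77), Mmp9 (0.33), Cd177 (0.50) and Chil3 (-0.82) overlapped. The median was 1.21 for the primary granule list and 0.26 for the specific and gelatinase list. It was 0.38 for 13 mature neutrophil genes and 0.46 for the 5 genes listed as other CXCR2 ligands. Of the mature genes, Csf3r (0.41), Fpr1 (0.93), Fpr2 (0.38) and Retnlg (0.63) stood apart, while Cxcr2 (0.01) and Il1r2 (0.25) did not. In the CXCR2 list 1 gene stood apart as higher and 0 as lower. It was Ppbp, which read 8.26 to 8.75 at POD8 and 6.6 to 7.11 at POD5. Ly6g, the surface marker of mouse neutrophils, and Cebpe were not matched to a probe and were not analysed here.

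**Figure D2:**
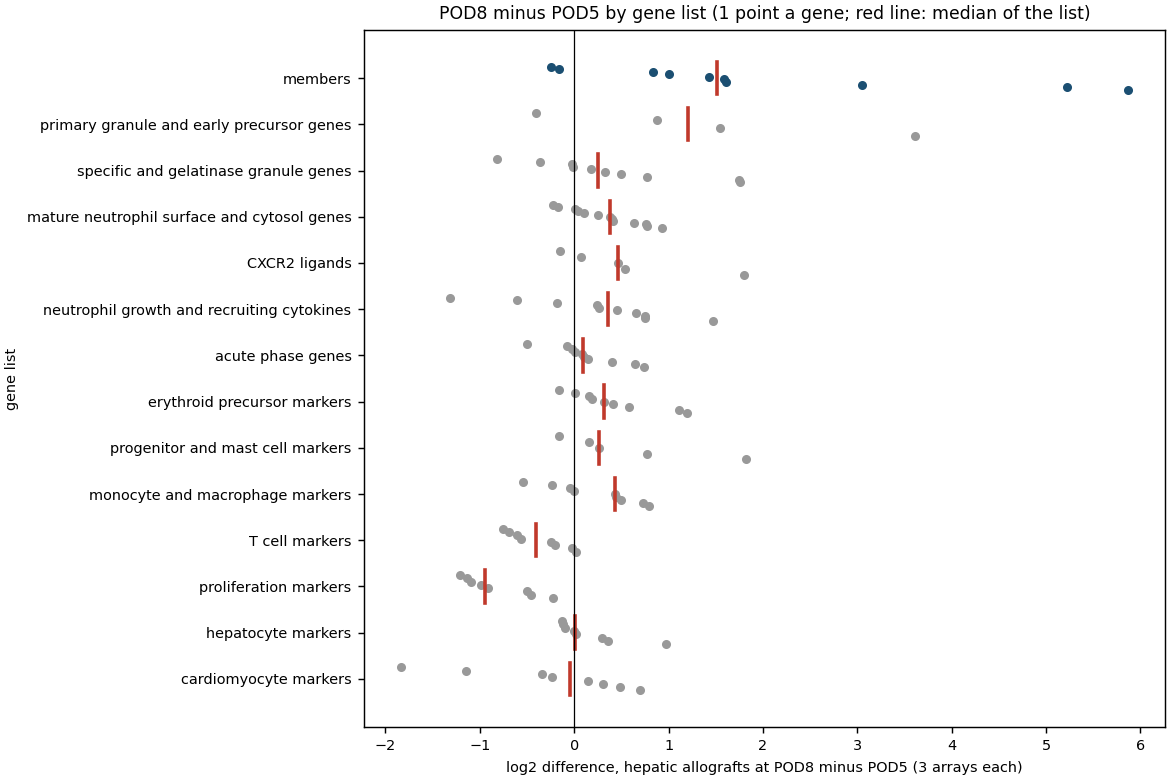
Each point is a gene, placed by the log2 difference of the hepatic allografts at POD8 minus POD5 (horizontal axis, 3 arrays each), with 1 row for each gene list. The red line is the median of the list, which is 1.51 for the 10 genes of the set, 1.21 for primary granule and early precursor genes and 0.38 for mature neutrophil genes. The set was chosen with this contrast known, so its median is not set against those of the lists.

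Markers of erythroid precursors, of progenitors and mast cells and of monocytes and macrophages were read on the same arrays. Here too 8.83% of all genes stood apart as higher at POD8 and 11.2% as lower. Of 9 erythroid precursor markers, POD8 livers were above POD5 livers for 2, Alas2 (1.20) and Epb42 (1.11), and below for Rhag (-0.16), which was not above background on any array. The summed signal of that list was 6270 to 8280 at POD8, 2420 to 4660 at POD5 and 8770 to 11900 in controls. Of its genes, 4 were not above background on any POD8 array, 5 on any POD5 array and 6 on any hepatic control. The erythroid sum was mostly Alas2, at 12.55 to 12.95 at POD8 on the log2 scale, against 7.12 to 7.87 for Slc4a1, the next brightest. Of 5 progenitor and mast cell markers, Mcpt8, a basophil protease, stood apart (2 POD8 arrays and no POD5 array above background, at least 1.25-fold), and the summed signal was 753 to 945 at POD8 and 704 to 868 at POD5. That sum was mostly Cd34, at 9.28 to 9.69 at POD8, against 6.01 to 6.23 for Gata2, the next brightest. Of 9 monocyte and macrophage markers 3 stood above and 1 below, with sums of 56100 to 61500 and 47200 to 53700. The part of these cells in the member values was not tested. Proliferation markers ran the other way, with POD8 livers below POD5 livers for 6 of 8 genes.

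Against the hepatic controls, the livers at POD5 had lower Mpo. The log2 difference was -1.79 (SE 0.22, 95% interval -2.35 to -1.23), a 3.46-fold lower signal with an adjusted P of 0.0259 (limma, Benjamini-Hochberg over 41155 probes), and all 3 allografts lay below all 3 controls. Before normalization the groups overlapped, with processed signals of 36.6, 41.6 and 103 in the dimmer controls and 51.9, 45.7 and 35.6 in allografts. Mpo was the 1 gene called lower of 8 tested and 0 were called higher, where 0.812% of all genes were called lower and 2.50% higher. Cxcl1 had a difference of -2.35 (SE 0.59, adjusted P = 0.109) and Cxcl2 of 2.06 (SE 0.57, adjusted P = 0.133), both without overlap of the groups and neither past the threshold. The Cxcl1 groups overlapped before normalization (417, 648 and 3660 in controls, 690, 467 and 300 in allografts). For Cxcl2 no fold is given, as no control was above background. All 3 allografts lay above the controls for 1 of the 8 tested genes (Cxcl2) and below them for 2 (Mpo and Cxcl1), where 12.2% and 19.7% of all genes did so. Lcn2 (1.13), Ltf (0.52), S100a9 (-0.10), S100a8 (-0.13) and Elane (-0.15) had overlapping groups and adjusted P of 0.418 to 0.957. As a description, Camp was at least 3.1-fold lower at POD5 than in controls, a log2 difference of -3.52 that was -0.56 with normexp correction, and Ngp was not above background in either group. The call for Mpo was lost when any 1 array other than the second control was left out (adjusted P 0.052 to 0.125). In 1 fit of all 5 groups it was also lost (adjusted P = 0.0546), and Cxcl1 and Cxcl2 were called in its place (adjusted P 0.018 and 0.023, limma). With the slide as a random block the Mpo call was kept (-1.81, adjusted P = 0.0469). As the 2 groups shared no slide, that fit cannot separate slide from group.

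At POD8, 0 of the 8 tested genes were called against the hepatic controls, where 3.54% of all genes were called higher and 1.55% lower, and 2 had an unadjusted P below 0.05. These were Cxcl2, at 1.90 (SE 0.37, 95% interval 0.97 to 2.84, adjusted P = 0.0552) with all allografts above all controls, and Ltf, at 2.11 (SE 0.81, 0.07 to 4.15, adjusted P = 0.214). Mpo was at 1.26 (SE 0.57, -0.19 to 2.71), Elane at 1.28, Lcn2 at 0.88, S100a8 at 0.87, S100a9 at 0.74 and Cxcl1 at -0.73. All 3 POD8 livers lay above all controls for 1 of the 8 tested genes, Cxcl2, where 11.9% of all genes did, and below them for 0 (19.8%). Ngp and Camp, chosen for their POD8 values, were not tested. Ngp was at least 4.03-fold higher than in controls, and Camp, with 2 of 3 controls above background, 5.07-fold. Their log2 differences of 2.62 and 2.34 were 1.07 and 1.37 with normexp correction, and 1.92 and 1.64 without the first POD8 array. Of the POD8 livers and controls, 2 each shared a slide, and within it the differences were 3.05 for Ngp, 2.62 for Camp, 3.31 for Ltf, 1.89 for Mpo, 1.69 for Cxcl2 and -0.11 for Cxcl1, with 0 called (a check chosen after seeing the data). Without the first control, the dimmest array of the series, Cxcl2 was called (2.39, adjusted P = 0.00805, limma). For Cxcl2 no control and only 2 of 3 POD8 livers were above background, so no fold is given. The POD5 and POD8 comparisons share their 3 controls.

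In the heart, where all 10 genes could be tested, 0 were called in allografts against controls by limma, where 15.5% of all genes were called higher and 15.2% lower. An unadjusted P below 0.05 was found for 2 genes, S100a8 and S100a9. S100a8 had a difference of -2.12 (SE 0.75, 95% interval -4.01 to -0.23, adjusted P = 0.0867) with all allografts below all controls, and S100a9 of -1.48 (SE 0.57, -2.91 to -0.05, adjusted P = 0.104). Groups did not overlap for 1 of the 10 genes, S100a8 (lower, as in 24% of all genes, and 0 higher, as in 30.0%). The remaining 8 differed by -0.65 (Ngp) to 0.83 (Cxcl1), with intervals that included 0, and Elane was not above background on any cardiac array. The second cardiac allograft read highest of its group for 8 of the 10 members and for 11 of 13 mature neutrophil genes. It also did so for 10 of 10 genes listed as specific and gelatinase granule genes. The same array also read highest for 8 of 10 acute phase genes and 4 of 5 progenitor and mast cell markers. It read highest for 8 of 10 genes listed as neutrophil growth and recruiting cytokines. It did so for 2 of 8 T cell markers and 1 of 8 proliferation markers. It was also the dimmest cardiac array, with a 75th percentile of 363 and 56.2% of probes above background. Without it S100a8 (-2.93, adjusted P = 0.00385) and S100a9 (-2.07, adjusted P = 0.00572) were both called lower.

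**Figure D3:**
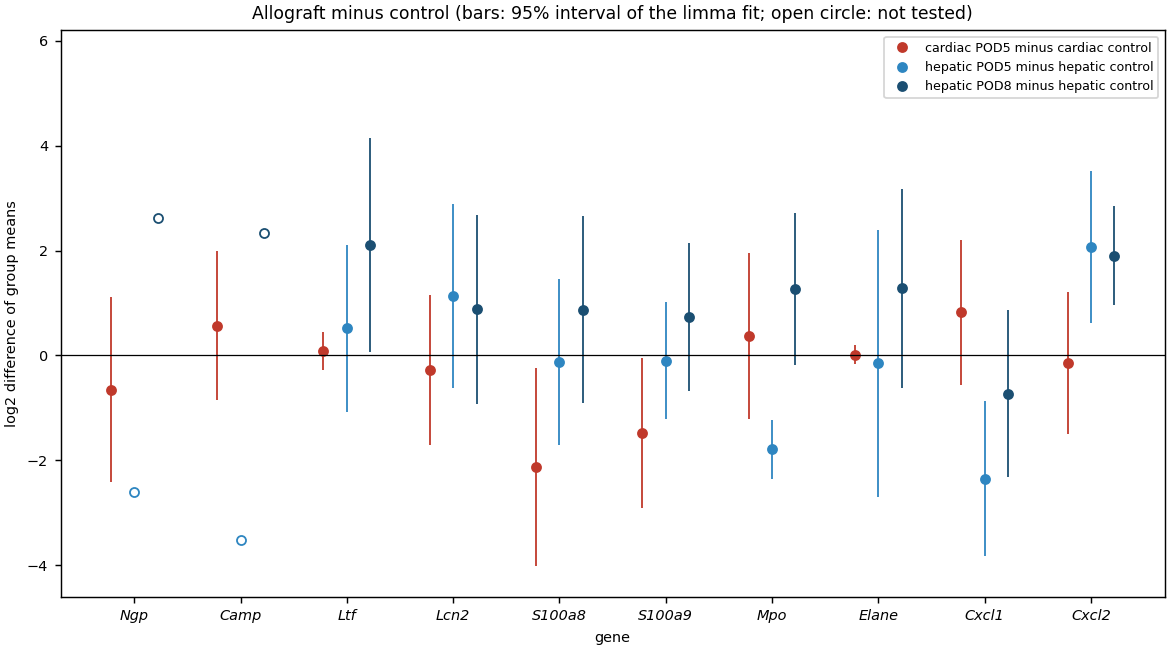
The log2 difference of group means, allograft minus control, is shown for each gene (horizontal axis) in 3 comparisons of 3 arrays against 3, with the 95% interval of the limma fit as a bar and open circles for values given without a test. Before adjustment for multiple testing, the interval lies wholly below 0 for Mpo and Cxcl1 in the liver at POD5 and for S100a8 and S100a9 in the heart. It lies wholly above 0 for Cxcl2 in the liver at both days and for Ltf in the liver at POD8.

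The cardiac and hepatic differences at POD5 were compared with each other in 1 fit of 12 arrays. Cxcl1 differed between the organs, with a difference of differences of 3.18 (SE 0.84, 95% interval 1.29 to 5.06, adjusted P = 0.0356, limma), made of 0.83 in the heart and -2.35 in the liver. It was the 1 gene called of 8 tested, where 6.76% of all genes were called in that direction and 7.07% in the other. Mpo had a difference of 2.17 (adjusted P = 0.0678), Cxcl2 of -2.21 (adjusted P = 0.104) and S100a8 of -1.99 (adjusted P = 0.220), and these were not called. Leaving out 1 array ended the Cxcl1 call in 7 of 12 fits, namely for cardiac allograft replicates 2 and 3, cardiac control replicates 1 and 2 and each hepatic allograft, with adjusted P of 0.056 to 0.0851. It was also lost with the slide as a random block (3.41, adjusted P = 0.0671) and with a replicate block (adjusted P = 0.0514), and 1 hepatic POD5 array was on the slide of the cardiac allografts. The organs came from different donor and recipient strains, so organ and strain pair cannot be told apart.

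Genes of neutrophil growth and traffic outside the set were called in both organs. Of 10 genes listed as cytokines that make or draw neutrophils, 5 were called higher in cardiac allografts and 0 lower. They included the macrophage chemokine Ccl3 (4.58), Tnf (4.47), the growth factor Csf2 (3.57) and Il1b (2.19). Of all genes, 15.5% were called higher there and 15.2% lower. In the liver 4 of these 10 genes were called higher at POD5 and 5 at POD8, where 2.50% and 3.54% of all genes were. Ccl3 was at 5.61 and 6.36, Tnf at 2.55 and 3.22, and Il1b at 1.60 and 2.35. Csf2 was called at POD8 (1.85) with 2 of 3 allografts and 0 controls above background. C5ar1, the receptor for complement C5a and not a cytokine, is counted in both hepatic numbers. It was called at both days on a probe that was not above background on any hepatic array. Csf3, the main growth factor of neutrophils, was not called in any comparison and was above background on only 1 of the 15 arrays. Il17a was above background on 0.

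Of the 5 genes listed as other CXCR2 ligands, 2 were called lower in cardiac allografts, Pf4 (-3.56) and Ppbp (-2.39). Both are stored in platelets and megakaryocytes. Of all genes, 15.2% were called lower there. Pf4 lacks the ELR motif of the chemokines that activate CXCR2, so it is a CXCR2 ligand by the name of the list only. It is kept in the counts and medians of that list. Pf4 read 9.88 to 11.75 in cardiac allografts and 14.14 to 14.32 in controls. In the liver 0 of the 5 were called at POD5 and 2 at POD8, Ppbp (1.57) and Cxcl3 (1.48, not above background on any of these arrays). Of all genes, 3.54% were called higher at POD8. The change in the heart was lower than that in the liver at POD5 by 2.17 for Ppbp and by 3.36 for Pf4, both called in the test of that difference. That test called 7.07% of all genes in this direction. Cxcl15 was not above background on any array.

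Of 13 mature neutrophil genes, 2 were called higher and 2 lower in cardiac allografts, where 15.5% and 15.2% of all genes were, a share near that of the list. The formyl peptide receptor Fpr2 (2.40) and the G-CSF receptor Csf3r (0.75) were higher, while Retnlg, a resistin-like protein of neutrophils, fell by 2.83 and the chemokine receptor Cxcr2 by 1.06 on the log2 scale. Fpr2 and Csf3r are also carried by monocytes. In the liver limma called 0 genes of the list at either day. An unadjusted P below 0.05 was found for 2 genes at POD5 and 4 at POD8, among them Fpr2 at 1.81 and 2.19. All allografts lay above all controls for 3 of the 13 genes at POD5 and 8 at POD8, where 12.2% and 11.9% of all genes did. They lay below all controls for 0 and 1, where 19.7% and 19.8% of all genes did. The difference between the organs was called for Retnlg (-4.29, adjusted P = 0.0239) and Cxcr2 (-1.71, adjusted P = 0.0403). Cardiac allografts had a median difference over the list of -0.14, livers at POD5 one of 0.65 and those at POD8 one of 1.24, against 0.03, -0.08 and -0.11 over all genes.

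Of 10 genes listed as specific and gelatinase granule genes, 2 were called higher in the heart and 0 in the liver at either day. They were Ltb4r1 (3.21) and Pglyrp1 (1.24). Ltb4r1 is the leukotriene B4 receptor, a receptor rather than a granule protein, which T cells also carry. The share in the heart is near that of all genes. For each list here, the shares of all genes called higher and lower were 15.5% and 15.2% in the heart, 2.50% and 0.812% at hepatic POD5 and 3.54% and 1.55% at POD8. In the list of 4 primary granule and early precursor genes, Gfi1 was the 1 gene called in each comparison, with a log2 difference of 4.74 in cardiac allografts and a bound of at least 5.25-fold for livers at POD5 and of at least 3.98-fold for those at POD8. Prtn3 (-1.83) and Ctsg (-1.05) lay below the controls on all 3 POD5 livers and were not called, and Ms4a3 (-1.42) was not above background in either group. T cell markers moved on the same arrays, with 8 of 8 called higher in the heart and 6 of 8 in the liver at either day, and their summed signal was 11600 to 18300 in cardiac allografts against 478 to 689 in controls. Proliferation markers were called higher for 6 of 8 genes in the heart, 5 at hepatic POD5 and 2 at POD8. Monocyte and macrophage markers were called higher for 3 of 9 in the heart (Ly6c2, Fcgr1 and C1qa) and for Ly6c2 and Ccr2 in the liver at both days. Their part in the values of the neutrophil genes was not tested. Acute phase genes were not called in the liver (0 of 10 at either day), and in the heart Serpina3n (-1.23) and Steap4 (-1.20) were lower. Erythroid markers were called for 0 of 9 genes in the heart, and in the liver Alas2 was lower at POD5 (-1.74). Progenitor and mast cell markers were called lower for 3 of 5 in the heart (Cpa3, Gata2 and Cd34) and higher for 2 of 5 in the liver at POD8 (Mcpt8 and Gata2).

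**Figure D4:**
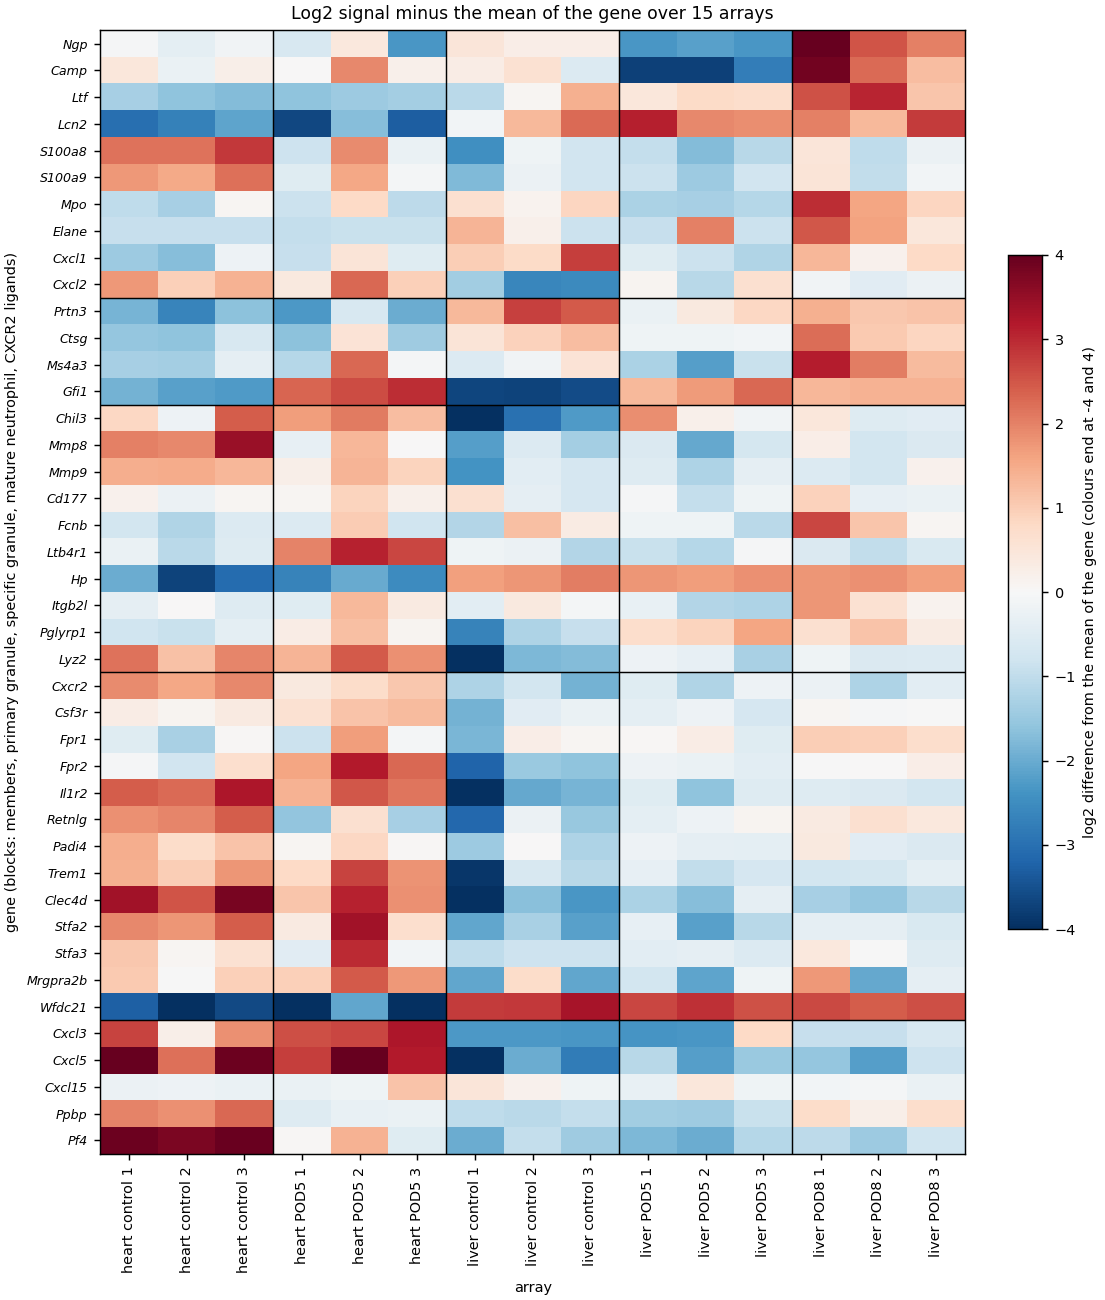
Rows are the 10 genes of the set and 4 further neutrophil gene lists, separated by lines, and columns are the 15 arrays. Colour is the log2 signal minus the mean of that gene over the 15 arrays, and Ngp and Camp are blue on the POD5 livers and red on the POD8 livers, while Il1r2, Trem1 and Clec4d are red on every heart.

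The genes whose pattern was most like that of 3 members were ranked by Pearson's r over the 15 arrays, among 15252 named genes outside the set that were above background on at least 3 arrays. Within the set, r was 0.916 between Ngp and Mpo, 0.866 between Ngp and Camp and 0.995 between S100a8 and S100a9. The arrays fall into organs and groups, so that r is a description of likeness. Ngp was well above background only in the POD8 livers and the cardiac controls. Its r values therefore rest in large part on readings below background, and the POD8 livers were part of the choice of genes. For Ngp the genes outside the set were Ms4a3 (0.807), Prg2 (0.797), Calcb (0.788), Mertk (0.712), Usp21 (0.705) and Ube2u (0.703). Prg2 encodes the eosinophil major basic protein. For S100a8 they were Mmp8 (0.967), the neutrophil collagenase, Bud31 (0.949), Trappc1 (0.946), Wfdc17 (0.944), Ackr1 (0.942) and Rpl7l1 (0.941). For Cxcl1 they were Spout1 (0.831), Derl3 (0.829), Htr1d (0.829), Kat8 (0.816) and Dpagt1 (0.815). Of the genes named here, Ms4a3 and Mmp8 belong to the other neutrophil lists.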

How the data were processed

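Gene expression was measured on 15 single-colour Agilent arrays (Cy3, total RNA), 3 for each of 5 groups taken from the sample labels. The deposited values are spot intensities on the linear scale, of which the processed signal was made by Agilent Feature Extraction 10.5.1.1 (per the file headers) with the local background subtracted and without normalization between arrays. Median spot and background intensities and marks for outliers, saturation and signal well above background are also given. An array carries 43379 spots that stand for 41174 probes.

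After removal of 47 to 113 outlier spots per array (0 spots were saturated), log2 signals were averaged over the spots of each probe, and quantile normalization was run over all 15 arrays. The study normalized natural logs. The number of arrays limits the precision, and an exact permutation test of 3 arrays against 3 cannot give a 2-sided P below 0.10. Within groups, r between arrays was 0.965 to 0.992, and 0 pairs of arrays were identical. A probe was taken to be well above background when at least 0.5 of its spots carried that mark. Probes were named through the transcript accession in the files and a RefSeq table of GRCm38.p6, used for names, gene order and promoter windows (26690 probes, 64.8%, 18217 symbols). A gene was read from its brightest probe, that with the highest mean over 15 arrays. Genes of the lists with no matched probe (Cebpe, Ly6g, Kit, Cd68 and Trac) were not analysed here, and 2 genes of the lists and 1 of the genes most like Cxcl1 are not reported here and enter no list's counts, medians or sums.

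Each comparison was fitted with lmFit and eBayes (limma 3.58.1, R 4.3.3, the data.table package 1.17.8) on its 6 arrays, or 12 for the difference between organs, with Benjamini-Hochberg adjustment over all probes tested and a threshold of 0.05. The members and lists were chosen with earlier results of these data known. Named were the members, up to 4 called genes of a list with the largest differences in a comparison, list genes below background on all arrays, and the 6 genes most like Ngp, S100a8 and Cxcl1. Genes of the lists named beside these without a call were chosen after their values were seen.

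The alternatives were quantile normalization over the comparison, scaling to the 75th percentile, a normexp background correction (offset 50) on median signals, keeping outlier spots, only probes well above background, the methods' t-test, standardized fold change (SFC, bins of 1000) with Bonferroni adjustment, 1 fit of 5 groups, a trended and robust prior, Bonferroni adjustment of limma, the mean of all probes, blocks for replicate number and slide, and leaving out each array. The limma step was tested on simulated data. Plots were made in Python 3.11.15 with matplotlib 3.10.9.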

Additional observations from a re-analysis of the deposited data

Results flagged for a closer look

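The Cxcl1 difference between organs stood out because the cardiac and the hepatic allograft effects at POD5 differed by a test of the difference itself. It was 3.18 on the log2 scale (adjusted P = 0.0356, limma), with 0.83 in the heart, where 2 of 3 controls were below all allografts, and -2.35 in the liver, where 3 of 3 allografts were below all controls. The hepatic groups stood apart only after normalization. The call was lost with the slide as a random block (adjusted P = 0.0671), with a replicate block (adjusted P = 0.0514) and in 7 of 12 fits that left out 1 array.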

How the results depend on the processing

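Of 552 member values recomputed under settings other than leaving out an array, 517 kept their direction and, where tested, their side of the threshold. Some settings, such as Bonferroni adjustment or a replicate block, change only the test, so that direction could not change under them. Most values were of genes not called to begin with. The number of members called was 0 of 10 in the heart, 1 of 8 in the liver at POD5, 0 of 8 at POD8 and 1 of 8 for the difference between organs. With scaling to the 75th percentile these numbers were 1, 2, 1 and 2, with only probes well above background 1, 2, 0 and 2, and with 1 fit of 5 groups 1, 2, 2 and 1 (at hepatic POD5 Cxcl1 and Cxcl2, with Mpo lost at adjusted P = 0.0546). The scaling moved the median log2 difference of all genes from 0.03 to 0.57 in the heart, -0.08 to -0.43 at hepatic POD5, -0.11 to -0.54 at POD8 and 0.11 to 0.78 between organs, and the gene it called in the heart was Elane, which is below background there. Quantile normalization over the comparison gave 1 at POD8 (Cxcl2). At hepatic POD5, the methods' t-test, SFC with Bonferroni adjustment, and Bonferroni adjustment of limma each gave 0 (Mpo, adjusted P 0.0814, 1 and 1). Between organs, Bonferroni adjustment and the slide as a random block gave 0 (Cxcl1, adjusted P 1 and 0.0671). Leaving out each array gave 0 to 2 in the heart, 0 to 1 at hepatic POD5, 0 to 1 at POD8 and 0 to 1 between organs. The t-test and SFC were not run for the difference between organs, and no slide block could be fitted in the heart. Hepatic POD8 differences with the slide as a fixed block equalled those within the shared slide.

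Replicate numbers did not pair the arrays (correlations of deviations between -0.123 and 0.0438 over the 4 comparisons). With a replicate block, 0 members were called in each comparison, so the calls for Mpo (adjusted P = 0.141) and Cxcl1 (adjusted P = 0.0514) were lost, and 6768, 0, 0 and 3563 genes were called in all, against 9883 in the heart, 1069 at hepatic POD5, 1646 at POD8 and 4448 between organs. Over all settings other than leaving out an array these totals ran from 76 to 17194, 0 to 4844, 0 to 10810 and 57 to 13103, and without each array from 5726 to 13091, 23 to 841, 252 to 2100 and 2310 to 5750.

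Reversals concerned small differences in genes not called. In the heart these were Camp under SFC (-0.03), Ltf by the mean of its probes (-0.15) and Cxcl2 under scaling to the 75th percentile (0.15). Leaving out each array gave ranges that crossed 0 in the heart for Ngp (-1.32 to 0.09), Camp (-0.03 to 0.92), Ltf (-0.01 to 0.20), Lcn2 (-0.86 to 0.11), Mpo (-0.21 to 0.78) and Cxcl2 (-0.69 to 0.27). They did so at hepatic POD5 for Ltf (-0.09 to 1.16), S100a8 (-0.78 to 0.35), S100a9 (-0.53 to 0.24) and Elane (-1.12 to 0.41), between organs for Ltf (-1.08 to 0.17) and Elane (-0.40 to 1.14), and for POD8 minus POD5 for Lcn2 (-0.64 to 0.15) and Cxcl2 (-0.66 to 0.22). The cause was not tested. Normexp correction lowered the POD8 minus POD5 difference to 1.39 for Ngp, 1.93 for Camp and 1.98 for Mpo, all still above 0, and the sizes for Ngp and Camp rest on POD5 readings below background. Against controls it gave -0.33 (Ngp) and -0.56 (Camp) at POD5, and 1.07 and 1.37 at POD8.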
